A study of Homo sapiens with 3 samples.

Results

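The feedback genes of the ERK pathway examined here are 10 genes of 2 kinds. They comprise 5 dual-specificity phosphatases (DUSP1, DUSP4, DUSP5, DUSP6 and DUSP10), and 5 Sprouty and Sprouty-related genes (SPRY1, SPRY2, SPRY4, SPRED1 and SPRED2). They were chosen by name, with earlier results of these data known. Shares of all probe sets or genes set beside them below are therefore descriptive and not a test. Every probe set annotated to exactly 1 of these symbols was taken. This gave 22 of the 54613 probe sets other than controls, for 10 of 19775 genes. DUSP5, SPRY2 and SPRY4 had 1 probe set each, DUSP10 and SPRY1 had 2, and the other 5 genes had 3. The study used T47D, an established human mammary carcinoma line whose cells carry estrogen receptor α, and 3 Affymetrix HG-U133 Plus 2 arrays. The cells were kept for 4 h in medium with 10% charcoal-stripped serum, from which steroid hormones have been removed, before treatment. The groups were ERα17p at 1 µM for 3 h, estradiol at 1 µM for 3 h, and ethanol vehicle at 0.1% for 3 h, with 1 array each. The labels give an ethanol share for the vehicle cells alone. Estradiol is the natural ligand of the receptor, and ERα17p is a synthetic peptide that copies the calmodulin-binding stretch of the receptor. With 1 array per group there was no error between cultures and no p-value, and the number of arrays limits the precision of every value below. The SD given with a gene is over its probe sets, which share a target and are not replicates of a treatment. In such bulk RNA, fewer cells of a type and less RNA per cell cannot be told apart.

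Growth factor receptors switch on Ras, which activates the kinases RAF, MEK and ERK in turn. Active ERK raises the transcription of its own inhibitors. The dual-specificity phosphatases remove phosphate from ERK and the related kinases JNK and p38, while Sprouty and SPRED proteins act further upstream, between the receptor and RAF. Several of these transcripts are short-lived, and in cancer cells DUSP6, DUSP4 and the Sprouty genes are widely used as a readout of recent ERK activity.

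Promoter sequence from RefSeq on GRCh38.p14, covering 250 bases before and 50 after the annotated start, was matched for 8 of the 10 genes. DUSP4 and DUSP5 are named only. The windows of 3 genes are shown 5′ to 3′ because they stand for the different patterns described below. DUSP1 had the probe set with the largest difference of all members from the vehicle array. DUSP6 had the largest difference between the treated arrays, and SPRY2 was higher in both treated arrays. The DUSP1 window is chr5:172771146-172771445, the DUSP6 window chr12:89352452-89352751 and the SPRY2 window chr13:80341077-80341376, all on the minus strand. Capitals mark matches on either strand to the cyclic AMP response element TGACGTCA, its core TGACG, the TATA box TATAAA and the CCAAT box.
DUSP1: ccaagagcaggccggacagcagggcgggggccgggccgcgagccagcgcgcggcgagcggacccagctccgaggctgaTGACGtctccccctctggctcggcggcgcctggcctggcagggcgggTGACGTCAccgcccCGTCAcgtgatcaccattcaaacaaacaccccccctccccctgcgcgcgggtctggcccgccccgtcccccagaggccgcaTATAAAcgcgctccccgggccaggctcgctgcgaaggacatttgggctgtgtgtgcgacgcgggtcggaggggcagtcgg
DUSP6: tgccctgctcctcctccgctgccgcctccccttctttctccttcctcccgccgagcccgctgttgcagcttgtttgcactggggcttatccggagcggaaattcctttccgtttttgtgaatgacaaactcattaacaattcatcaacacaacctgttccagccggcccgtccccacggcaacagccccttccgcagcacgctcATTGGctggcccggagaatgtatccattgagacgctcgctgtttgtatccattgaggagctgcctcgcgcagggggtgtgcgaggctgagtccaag
SPRY2: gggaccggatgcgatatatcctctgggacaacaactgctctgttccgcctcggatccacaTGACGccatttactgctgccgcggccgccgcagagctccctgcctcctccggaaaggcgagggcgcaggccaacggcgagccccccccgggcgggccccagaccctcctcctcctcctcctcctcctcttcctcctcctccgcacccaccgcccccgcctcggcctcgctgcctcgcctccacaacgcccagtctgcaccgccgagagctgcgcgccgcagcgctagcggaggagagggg
The full response element overlaps 2 of the 4 core matches in DUSP1. It begins 125 bases before the start of DUSP1 and was in no other matched member, while 1.98% of 27305 promoters of the same length held it. The core was in 4 members, DUSP1, SPRY2, SPRY4 and SPRED2, against 25.0% of all promoters. TATAAA was in DUSP1 alone, against 12.0%, and CCAAT was in DUSP6 and DUSP10, against 35.7%. AGGTCA, to which estrogen receptors and other nuclear receptors bind in pairs of sites, was in SPRY4 alone, against 13.9%. The AP-1 motif TGACTCA, the ETS motif CCGGAAG and the CArG box bound by serum response factor were in 0 of the 8 windows, against 4.92%, 10.7% and 1.29% of all promoters.

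The deposited values are log2 expression relative to an unstated baseline, so they compare arrays within a probe set and give no level that can be set against another gene. For the same reason the identity of the line could not be checked from the presence of its markers. The means of 8 luminal markers lay between −0.18 and 0.28 on the ERα17p array, −0.22 and 0.45 on the estradiol array and −0.98 and 0.02 on the vehicle array. The 0.45 and the −0.98 were both of PGR, and the next lowest on the vehicle array was EPCAM at −0.24. The medians over the 8 were −0.02, 0.01 and −0.04 on the ERα17p, estradiol and vehicle arrays. Of the basal, stromal and blood cell markers 7 of 9 were measured, with means between −0.21 and 0.05, −0.15 and 0.18, and −0.43 and 0.48 on the same arrays in that order. The vehicle array stood apart from the others. The SD over all probe sets was 0.166 on the ERα17p array, 0.158 on the estradiol array and 0.434 on the vehicle array, and the 18S ribosomal RNA controls averaged −0.01, 0.11 and −1.76. The 3′ less the 5′ control of ACTB was −0.17 on the ERα17p array, −0.29 on the estradiol array and 0.52 on the vehicle array. These differences go with every comparison against the vehicle below, and their part in the results was not tested.

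The phosphatase genes were mostly highest on the vehicle array and lowest on the estradiol array. The vehicle array was the highest of the 3 in 10 of the 12 DUSP probe sets and the estradiol array the lowest in 9 of 12. Over all probe sets these shares were 38.9% and 29.5%. In 9 DUSP probe sets the order was estradiol lowest, ERα17p between, and vehicle highest. The DUSP probe sets had a median of 0.17 on the ERα17p array, −0.32 on the estradiol array and 0.99 on the vehicle array.

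**Figure D1:**
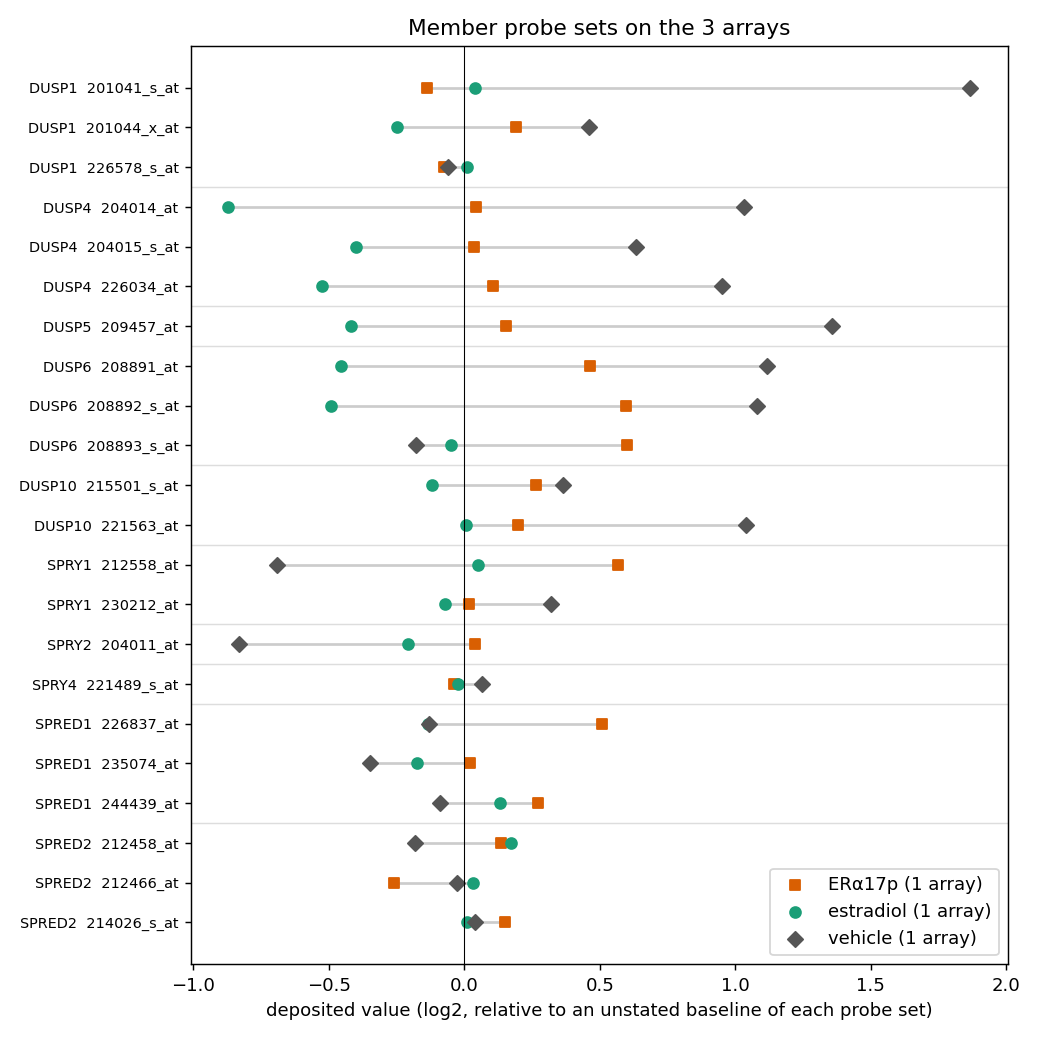
Deposited log2 value (x axis, relative to an unstated baseline) of each of the 22 member probe sets (rows) on the ERα17p, estradiol and vehicle arrays, 1 array each, with a grey line spanning the 3 values. The DUSP4 and DUSP5 rows have estradiol on the left, ERα17p near 0 and vehicle on the right, while vehicle is the leftmost point for SPRY2 and for the SPRY1 probe set 212558_at.

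DUSP6 encodes a cytoplasmic phosphatase that is selective for ERK among the MAP kinases. Its probe set 208891_at read 0.46 on the ERα17p array, −0.46 on the estradiol array and 1.12 on the vehicle array. Probe set 208892_s_at read 0.60 with ERα17p, −0.49 with estradiol and 1.08 with vehicle. In both, estradiol was lowest and ERα17p lay between it and the vehicle. The remaining set, 208893_s_at, read 0.60 with ERα17p, −0.05 with estradiol and −0.18 with vehicle, so it placed the vehicle lowest. The 3 DUSP6 sets thus had the same sign for ERα17p minus estradiol, at 0.92, 1.09 and 0.65, and opposite signs for ERα17p minus vehicle, at −0.65, −0.48 and 0.78. For estradiol minus vehicle they gave −1.57, −1.57 and 0.13. The gene mean for ERα17p minus vehicle was −0.12 ± 0.78 (SD, n = 3 probe sets). It was −0.48 with the median of the sets and −0.65 with 208891_at alone, the only 1 of the 3 whose identifier carries no _s_at, the ending for a set that can match several transcripts.

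DUSP4 encodes a nuclear phosphatase of ERK, JNK and p38. Its probe set 204014_at read 0.04 on the ERα17p array, −0.87 on the estradiol array and 1.03 on the vehicle array. Probe set 226034_at read 0.11 with ERα17p, −0.53 with estradiol and 0.95 with vehicle, and 204015_s_at read 0.04, −0.40 and 0.63 in the same order. All 3 sets ranked the arrays alike. The gene mean was −1.47 ± 0.44 for estradiol minus vehicle, −0.81 ± 0.20 for ERα17p minus vehicle and 0.66 ± 0.24 for ERα17p minus estradiol (SD, n = 3 probe sets), and each of these means exceeded its SD. On a log2 scale these are 2.77-fold lower with estradiol than with vehicle, 1.75-fold lower with ERα17p than with vehicle, and 1.58-fold higher with ERα17p than with estradiol.

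DUSP5 encodes a nuclear phosphatase specific for ERK. Its probe set 209457_at read 0.15 on the ERα17p array, −0.42 on the estradiol array and 1.36 on the vehicle array. The order matched that of DUSP4. The difference was −1.77 for estradiol minus vehicle and −1.20 for ERα17p minus vehicle, the lowest of the 10 gene means in each. ERα17p minus estradiol was 0.57, just under the 1.5-fold threshold used below, which is 0.58 on the log2 scale.

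DUSP1, an immediate early gene whose product acts on p38, JNK and ERK, gave readings that depended on the probe set. Its set 201041_s_at read −0.14 on the ERα17p array, 0.04 on the estradiol array and 1.87 on the vehicle array. That vehicle value was the highest of all 66 member readings, and the differences from vehicle were −2.00 with ERα17p and −1.83 with estradiol. Set 201044_x_at read 0.19 with ERα17p, −0.25 with estradiol and 0.46 with vehicle, while 226578_s_at read −0.08, 0.01 and −0.06 in the same order. The last set thus showed no difference over 0.1 on the log2 scale between any arrays. The gene means were −0.82 ± 0.96 for estradiol minus vehicle and −0.76 ± 1.08 for ERα17p minus vehicle (SD, n = 3 probe sets), each smaller than its SD. For ERα17p minus estradiol the mean was 0.06 ± 0.33.

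DUSP10, whose product prefers JNK and p38 to ERK, had 2 probe sets. Set 221563_at read 0.20 on the ERα17p array, 0.01 on the estradiol array and 1.04 on the vehicle array, and 215501_s_at read 0.27, −0.12 and 0.36 in the same order. Both had vehicle highest and estradiol lowest. The gene mean was −0.76 ± 0.39 for estradiol minus vehicle, −0.47 ± 0.53 for ERα17p minus vehicle and 0.29 ± 0.14 for ERα17p minus estradiol (SD, n = 2 probe sets).

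Against the vehicle, 2 of the 4 Sprouty probe sets were higher with both treatments and 2 were lower, and the difference from the phosphatases was not tested. SPRY2, whose product binds the adaptor GRB2 and the ubiquitin ligase CBL, read 0.04 on the ERα17p array, −0.21 on the estradiol array and −0.83 on the vehicle array. It was lowest with vehicle, at differences of 0.63 for estradiol and 0.87 for ERα17p. SPRY1, a related inhibitor of receptor tyrosine kinase signalling, read 0.57 with ERα17p, 0.05 with estradiol and −0.69 with vehicle at set 212558_at. Its other set, 230212_at, read 0.02 with ERα17p, −0.07 with estradiol and 0.32 with vehicle. The 2 SPRY1 sets therefore had opposite signs against the vehicle (1.26 and −0.30 for ERα17p, 0.74 and −0.39 for estradiol) and the same sign for ERα17p minus estradiol, at 0.52 and 0.09. SPRY4, widely used in ERK signatures, read −0.04, −0.02 and 0.06 on the ERα17p, estradiol and vehicle arrays, and its largest difference was −0.10.

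SPRED proteins bind neurofibromin, which returns Ras to its inactive state. SPRED1 set 226837_at read 0.51 on the ERα17p array, −0.13 on the estradiol array and −0.13 on the vehicle array, so that ERα17p stood alone. Set 244439_at read 0.27 with ERα17p, 0.13 with estradiol and −0.09 with vehicle, and 235074_at read 0.02, −0.17 and −0.35 in the same order. ERα17p was highest in all 3 SPRED1 sets. The gene mean was 0.46 ± 0.16 for ERα17p minus vehicle, 0.13 ± 0.12 for estradiol minus vehicle and 0.33 ± 0.28 for ERα17p minus estradiol (SD, n = 3 probe sets). The SPRED2 set 212458_at read 0.14 with ERα17p, 0.17 with estradiol and −0.18 with vehicle. Set 212466_at read −0.26, 0.03 and −0.03, and 214026_s_at read 0.15, 0.01 and 0.04, in the same order. The 3 sets did not rank the arrays alike. SPRED2 had means of 0.07 ± 0.28, 0.13 ± 0.20 and −0.06 ± 0.22 for the same comparisons, each within its SD over 3 probe sets.

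**Figure D2:**
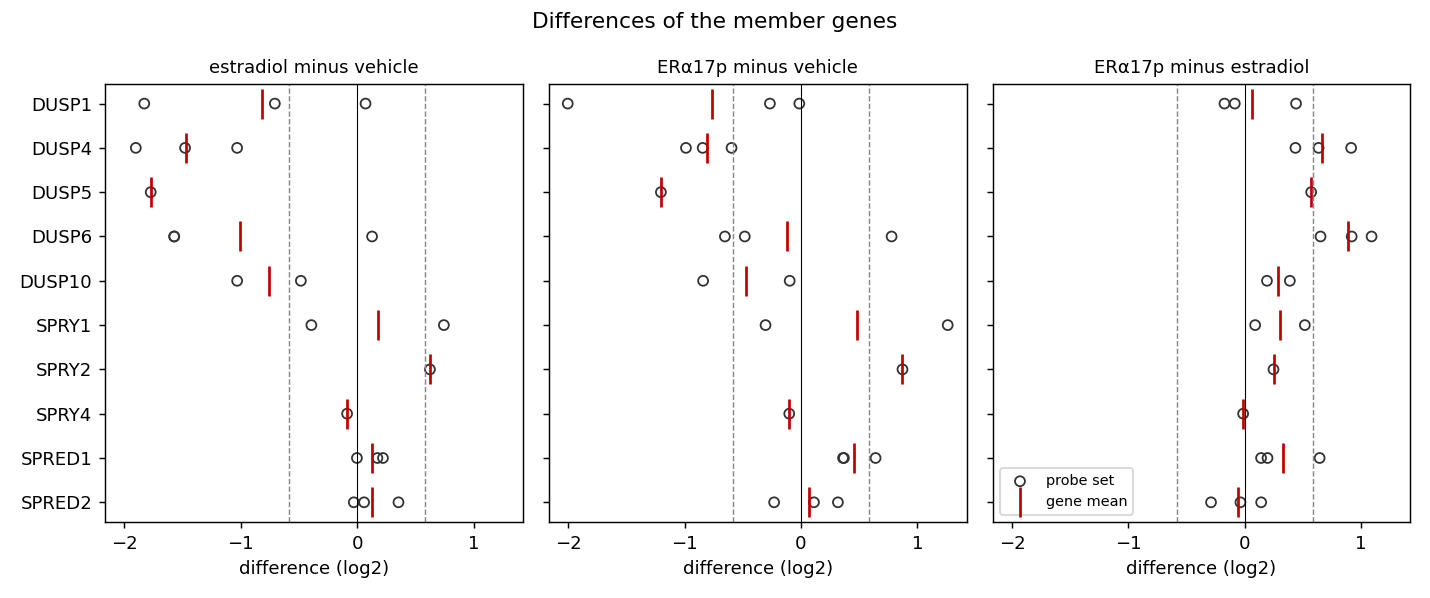
Differences between arrays (x axis, log2) for the 10 genes (rows), with open circles for probe sets, red bars for the gene mean and dashed lines at 1.5-fold. In the panels against vehicle the DUSP genes lie mostly to the left and SPRY2 to the right, and DUSP6 circles fall on both sides of 0, while in the panel of ERα17p minus estradiol no circle passes the left line.

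Counted by size, at 1.5-fold or more, 9 of 22 member probe sets were lower and 2 were higher with estradiol than with vehicle, against 9.78% lower and 9.07% higher of all probe sets. The 9 lower sets belonged to the 5 DUSP genes, and the 2 higher ones were SPRY2 and SPRY1 212558_at. The 2 higher of 22 are a share near that of all probe sets. By gene means 5 of 10 genes were lower, all phosphatases, and 1 was higher, against 8.42% and 6.48% of all genes. Of the lower genes, DUSP4 and DUSP5 passed with every probe set. DUSP1, DUSP6 (mean −1.01 ± 0.98, SD, n = 3 probe sets) and DUSP10 each had a set that did not pass. The 1 higher gene is likewise near the share of all genes. The median over the 22 sets was −0.24, beside 0.00 over all probe sets. At 2-fold, 8 of 22 sets were lower, against 2.47% of all, and 0 were higher, against 3.24%.

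With ERα17p against the same vehicle array, 7 of 22 sets were lower and 4 were higher, against 10.2% and 8.92% of all probe sets. The lower ones were in DUSP1, DUSP4, DUSP5, DUSP6 and DUSP10, and the higher ones were DUSP6 208893_s_at, SPRY1 212558_at, SPRY2 and SPRED1 226837_at. By gene means DUSP1, DUSP4 and DUSP5 were lower and SPRY2 was higher, 3 and 1 of 10 genes against 8.76% and 6.88% of all genes. The 1 higher gene of 10 is a share near that of all genes. DUSP1 did not pass with the median of its sets (−0.27), and without sets ending in _s_at or _x_at, which leaves DUSP1 with none, DUSP10 (−0.84) and DUSP6 passed as well. The median over the 22 sets was −0.17, beside 0.00 over all probe sets. Both comparisons share the vehicle array, so their values are not independent. At 2-fold, the lower sets were DUSP1 201041_s_at and DUSP5, which is 2 of 22 against 3.05% of all probe sets. With 1 set, of SPRY1, higher against 3.39% of all, the higher share was near that of all probe sets.

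The comparison of ERα17p with estradiol does not use the vehicle array. ERα17p was at least 1.5-fold higher in 6 of 22 sets and lower in 0, against 0.809% higher and 1.27% lower of all probe sets. The 6 were all 3 sets of DUSP6, 2 of the 3 of DUSP4 and SPRED1 226837_at. By gene means DUSP6 (0.89 ± 0.22, SD, n = 3 probe sets) and DUSP4 were higher, 2 of 10 genes against 0.521% of all genes, and 0 of 10 were lower, against 0.607%. Among all 54613 probe sets, 99.97% had a lower difference than DUSP6 208892_s_at, and 99.1% a lower difference than DUSP5. Over the members 17 of 22 differences lay above 0, beside 49.7% of all probe sets, with a median of 0.32 beside 0.00. The 12 DUSP sets had a median of 0.51 and a range of −0.17 to 1.09, and the 10 Sprouty and SPRED sets a median of 0.14 and a range of −0.29 to 0.64. All probe sets include those with little or no signal, which the deposited values do not mark, so these shares describe the array and not the expressed genes. At 2-fold the count was 1 set, DUSP6 208892_s_at, against 0.0568% of all.

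**Figure D3:**
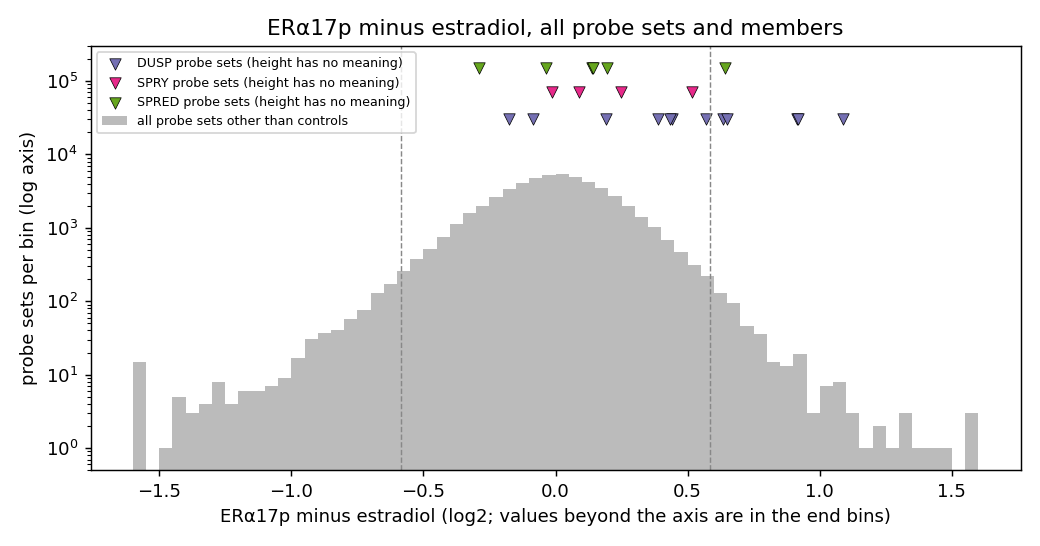
Number of probe sets (y axis, log scale) by the difference of ERα17p minus estradiol (x axis, log2, bins of 0.05), with the 22 member probe sets as triangles and dashed lines at 1.5-fold. The DUSP triangles reach 1.09, in the right tail where few probe sets lie, and no triangle lies left of −0.29.

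The other genes of the pathway were taken from 6 lists of 100 genes, of which 87 were measured. At 1.5-fold by gene means, 9 of the 87 were higher and 12 were lower with estradiol than with vehicle, 8 and 12 with ERα17p than with vehicle, and 1 and 4 with ERα17p than with estradiol. Over all 19775 genes, 2946 passed in either direction with estradiol against vehicle and 3093 with ERα17p, which are 14.9% and 15.6%. For ERα17p minus estradiol the share was 1.13%. By direction, 6.48% of all genes were higher and 8.42% lower with estradiol than with vehicle, and 6.88% and 8.76% with ERα17p. Between ERα17p and estradiol these shares were 0.521% and 0.607%.

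Among 16 other feedback genes, phosphatases and further pathway regulators such as PEBP1 and PEA15, 0 were higher with either treatment than with vehicle. With estradiol 1 was lower and with ERα17p 3 were, against 8.42% and 8.76% of all genes. The 1 of 16 is near that share. Against vehicle the list median was −0.23 with estradiol and −0.26 with ERα17p, beside −0.004 and 0.001 over all genes. Of the 16, 3 lay above 0 with estradiol and 4 with ERα17p. The 10 feedback genes had medians of −0.42 and −0.11 in the same comparisons, so lower values against vehicle were not particular to them. DUSP8, a phosphatase of JNK and p38, stood at −0.82 ± 1.08 with estradiol and −1.10 ± 0.98 with ERα17p (SD, n = 2 probe sets), against vehicle. DUSP2 and DUSP3 stood at −0.67 and −0.60 ± 0.37 for ERα17p minus vehicle, with 1 and 3 probe sets. For estradiol minus vehicle they stood at −0.19 and −0.58, so DUSP3 fell just under the threshold there. For ERα17p minus estradiol 0 of the 16 passed 1.5-fold, and their median was −0.01. This 0 is near the share of all genes, 1.13% in either direction.

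Of 12 measured ligands, HBEGF was lower, at −0.61 ± 0.38 (SD, n = 4 probe sets), and TGFA was higher, at 0.60 ± 0.66 (SD, n = 3), with estradiol than with vehicle, both of them ligands of the EGF receptor. The 1 lower and 1 higher ligand of 12 are near the shares of all genes, 8.42% and 6.48%. With ERα17p 0 of the 12 passed, and HBEGF and TGFA stood at −0.47 and 0.27. Of 11 receptors 1 was higher and 0 were lower with estradiol than with vehicle, near the shares of 6.48% and 8.42% of all genes. With ERα17p 2 were higher and 0 were lower, against 6.88% and 8.76%. EGFR stood at 0.85 ± 0.99 with estradiol and 0.76 ± 0.85 with ERα17p (SD, n = 9 probe sets) against vehicle, each smaller than its SD. FGFR2 stood at 0.59 ± 0.72 (SD, n = 11) with ERα17p. FGFR2 stood at 0.52 with estradiol, under the threshold. Neither the ligands nor the receptors had a gene past 1.5-fold between ERα17p and estradiol, which is near the share of all genes, 1.13%.

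In the cascade from adaptors through Ras to ERK, 20 of 27 genes were measured. With estradiol 3 were higher and 4 were lower than with vehicle, against 6.48% and 8.42% of all genes. With ERα17p 3 were higher and 3 were lower, against 6.88% and 8.76%. RASGRP1, which loads Ras with GTP, stood at 1.99 for estradiol minus vehicle and −0.42 for ERα17p minus vehicle. The kinase gene RPS6KA1, an ERK substrate, stood at −1.25 with estradiol and −0.94 with ERα17p. MAP2K1, which encodes the MEK1 kinase, stood at 1.07 with estradiol and 0.98 with ERα17p, and PTPN11, a phosphatase that promotes Ras signalling, at 1.02 ± 1.30 and 1.03 ± 1.33 (SD, n = 6 probe sets). The Ras gene HRAS stood at −0.86 with estradiol and −0.98 with ERα17p. RASGRP1 differed most between the treated arrays, at −2.41 for ERα17p minus estradiol, opposite in sign to DUSP4 and DUSP6, and the adaptor GAB2 stood at −0.66. RASGRP1, RPS6KA1, MAP2K1, HRAS and GAB2 had 1 probe set each.

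There were 17 measured transcripts that ERK signalling induces, other than the 10 feedback genes. Of these, 2 were higher and 5 were lower with estradiol than with vehicle, against 6.48% and 8.42% of all genes. With ERα17p 2 were higher and 5 were lower, against 6.88% and 8.76%. JUNB, an AP-1 subunit, stood at −1.92 with estradiol and −1.67 with ERα17p, the early gene IER2 at −1.30 and −1.36, and the transcription factor ATF3 at −1.20 ± 1.54 and −1.09 ± 1.80 (SD, n = 3 probe sets). EGR1, an early zinc finger factor, stood at −1.15 ± 0.27 with estradiol and −0.97 ± 0.32 with ERα17p (SD, n = 3). PHLDA1, named here after its values were seen, was among the higher genes with both, at 1.05 ± 0.41 and 0.93 ± 0.49 (SD, n = 6 probe sets). The growth-promoting factor MYC stood at 2.07 with estradiol. JUNB and IER2, like MYC, had 1 probe set each. Between the treated arrays MYC stood at −1.70 and IER3 at −0.76 for ERα17p minus estradiol, whereas EPHA4, an ephrin receptor, stood at 0.70 ± 0.42 (SD, n = 5 probe sets). DUSP4 and DUSP6 thus lay on the same side as EPHA4 and on the other side from MYC and IER3, which had 1 probe set each. Of all 17 transcripts 8 lay above 0 in that comparison, with a median of −0.06.

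Of the genes for the JNK and p38 kinases and the kinases upstream of them 11 were measured. With estradiol 2 were higher and 1 was lower than with vehicle, against 6.48% and 8.42% of all genes. With ERα17p 1 was higher and 1 was lower, near the shares of 6.88% and 8.76%. MAP3K1, which acts at the top of the JNK cascade, stood at 1.26 ± 1.21 with estradiol and 1.31 ± 1.38 with ERα17p (SD, n = 2 probe sets) against vehicle. MAPK13, a p38 kinase, stood at −0.70 ± 0.08 and −0.66 ± 0.14 (SD, n = 2), and MAP2K4 at 0.61 ± 0.10 (SD, n = 2) with estradiol. MAP2K4 stood at 0.57 with ERα17p, just under the threshold. For ERα17p minus estradiol 0 of the 11 passed 1.5-fold, which is near the share of all genes, 1.13%.

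**Figure D4:**
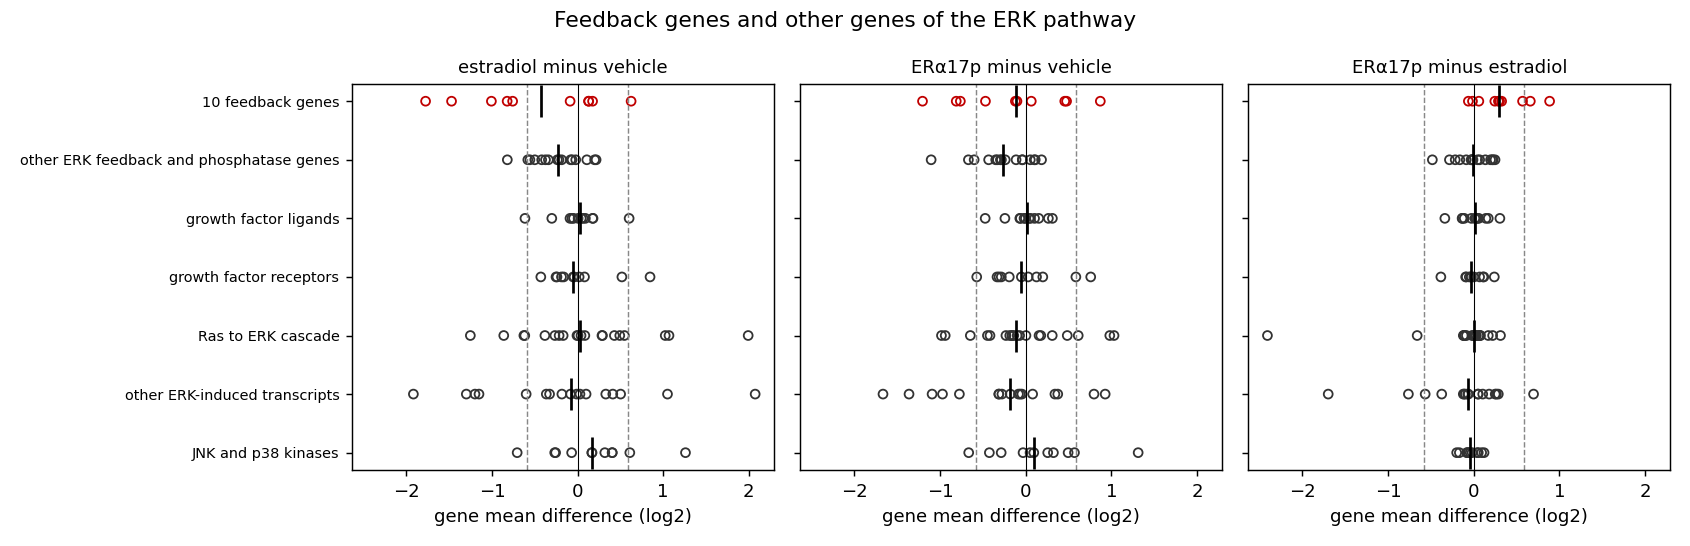
Gene mean differences (x axis, log2) in the 3 comparisons for the 10 feedback genes (red circles) and 6 other lists of the pathway (black circles), with a vertical bar at each median and dashed lines at 1.5-fold. In the panel of ERα17p minus estradiol the feedback genes have a median of 0.30 and the medians of the other lists lie between −0.06 and 0.02.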

How the data were processed

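Total RNA was labelled with biotin and hybridised to 1 array per group, per the labels' protocols. Per the submitters' processing notes, the authors used RMA to make the deposited values, which were taken as log2 values because RMA gives that scale. The values lie around 0 on every array and so were centred on some baseline. The sources used here name neither that baseline nor the log base or the RMA version.

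Probe sets were named from the platform annotation, and those with several symbols (1801) or none (11721) were left out of gene results, as were 62 controls. All 10 member symbols are current in RefSeq. Differences between arrays were computed for every probe set and averaged per gene, with no significance test, and counted at 1.5-fold. Every member probe set is described, and of each pathway list up to 4 genes per comparison with the largest difference past 1.5-fold could be named. The members and lists were chosen with earlier results of these data known. The counting of genes past the threshold was tested on a simulated table with known differences. That table had less spread than the comparisons with vehicle, so it checked the counting and not the share of false calls here. Python 3.11.15, numpy 2.4.6, pandas 2.3.3 and matplotlib 3.10.9 were used. The promoter motifs were chosen after the data were seen. Alternatives were other size thresholds, centred differences, other ways to summarise probe sets, and leaving out sets ending in _s_at or in _x_at, the ending for sets open to cross-hybridisation.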

Additional observations from a re-analysis of the deposited data

How the results depend on the processing

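The counts depended on the size threshold, which is a choice with no error behind it, and on how many probe sets of a gene had to pass. With estradiol against vehicle, 11 member probe sets, 6 member genes and 21 pathway genes passed 1.5-fold in either direction. At 2-fold the genes numbered 3 and 11, and at the lowest threshold, 0.32 on the log2 scale, 40 pathway genes passed. Among the largest 5% of all differences there were 6 probe sets, 3 genes and 11 pathway genes. Without sets ending in _s_at or _x_at, 7 of the 13 probe sets left passed, fewer because fewer were counted. Requiring every probe set of a gene to pass left 3 genes and 10 pathway genes. The 3 were DUSP4 and DUSP5, which were lower, and SPRY2, which was higher and had 1 probe set.

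With ERα17p against vehicle, 11 probe sets, 4 genes and 20 pathway genes passed 1.5-fold. At 2-fold these were 3, 1 and 6, at the lowest threshold 7 genes and 35 pathway genes passed, and among the largest 5% there were 3, 1 and 11. With every probe set required, 8 pathway genes passed.

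For ERα17p minus estradiol, 6 probe sets, 2 genes and 5 pathway genes passed 1.5-fold. At 2-fold these were 1, 0 and 2, and at the lowest threshold 11, 4 and 10. With every probe set required 1 gene passed, DUSP6, and without sets ending in _s_at or _x_at 3 pathway genes did. The members that passed were all higher with ERα17p under each of these settings. Centring on the median changed no count. The 84 recomputed gene means of members each moved by less than the SD over probe sets, pooled over members where a gene had 1 set. This was largely fixed in advance, because a median lies within 1 SD of its mean and centring shifted values little. It therefore says little about stability. The DUSP6 mean for ERα17p minus vehicle moved from −0.12 to −0.65 without sets ending in _s_at or _x_at. No paired analysis was possible because each group had 1 array, and leaving out a replicate was likewise not possible. Signal over background is unknown, since no absolute level was kept.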
